A study of Mus musculus with 2 samples.

Results

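Alveolar macrophages (AMs) rich in transcripts of neutrophil-attracting chemokines were chosen by their summed content of 4 transcripts, *Cxcl1*, *Cxcl2*, *Cxcl3* and *Ereg*. A cell was taken when this sum was in the highest 10% of the 13851 cells of both libraries that passed the quality filter, and when it did not also carry the *Apoe* program, meaning at least 1000 CPM of *Apoe*, *S100a6* and *S100a4* together. CPM stands for the UMIs (unique molecular identifiers, each one captured transcript) of a gene in 1000000 UMIs of the cell or of the summed cells, and is not scaled by gene length, since each 3′ UMI stands for 1 transcript. The rule selected 1015 cells, of which 397 came from 6185 control cells and 618 from 7666 tumor cells. Both libraries were 10x Genomics single-cell libraries of sorted AMs from the lungs of female C57BL/6 mice aged 10 weeks. The tumor library came from lungs injected orthotopically with LLC-tdTomato cells, a Lewis lung carcinoma line that carries a red fluorescent protein, and the control library from lungs injected with vehicle. No other treatment or allele separated the libraries, the AMs of both were isolated by cell sorting (elsewhere in the study AMs were gated as CD45+, autofluorescent, Siglec-F+ and F4/80+), and the number of mice pooled in each was not given in the sources used here. With 1 library per condition no test across animals could be made, and library and condition cannot be told apart.

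AMs are long-lived macrophages of the airspace that clear surfactant and inhaled particles and act as sentinels of the lung. When they sense microbes or tissue damage, signalling through NF-κB turns on genes of cytokines and of ELR-motif CXC chemokines, which bind CXCR2 and draw neutrophils out of the blood, and the same signalling turns on its own inhibitors, so that the response is brief. *Cxcl1*, *Cxcl2* and *Cxcl3* encode such chemokines, and *Ereg* encodes epiregulin, a ligand of the epidermal growth factor receptor (EGFR). *Inhba* encodes the subunit that forms activin A as a homodimer, and *Mmp12* encodes macrophage elastase.

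The 4 selecting genes are neighbours. On GRCm38, the build of the files (mm10), *Cxcl3* (chr5:90786103-90789600), *Cxcl1* (chr5:90891241-90893115), *Cxcl2* (chr5:90903871-90905938) and *Ereg* (chr5:91074622-91093646) lie on the + strand of chromosome 5 within 308 kb, and the chemokine genes alone span 120 kb. *Cxcl1* and *Cxcl2* are 10.8 kb apart, and 169 kb separate the end of *Cxcl2* from the start of *Ereg*. RefSeq (GRCm38.p6) gave the bases upstream of 3 of these 4 genes, and the stretch from 120 to 41 bases before each start site, on the + strand, is shown because one 11-base run is common to them. Capitals mark this run, a match to the κB site motif.
Cxcl1, chr5:90891125-90891204: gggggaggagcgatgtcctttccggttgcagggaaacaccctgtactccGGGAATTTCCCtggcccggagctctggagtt
Cxcl2, chr5:90903779-90903858: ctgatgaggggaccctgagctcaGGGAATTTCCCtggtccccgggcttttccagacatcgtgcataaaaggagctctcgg
Cxcl3, chr5:90785981-90786060: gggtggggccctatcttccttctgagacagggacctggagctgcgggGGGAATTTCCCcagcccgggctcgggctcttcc

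The run GGGAATTTCCC lay 71 to 61 bases before the start site in *Cxcl1*, 97 to 87 in *Cxcl2* and 73 to 63 in *Cxcl3*. Searched on both strands in the 250 bases before the start site, it was present in 14 of 32851 RefSeq promoters (0.0426%), of which these were 3. The wider κB motif, with overlapping matches counted once, was present in 3.90% of the promoters. A match is a description of letters and not evidence that a factor was bound.

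**Figure D1:**
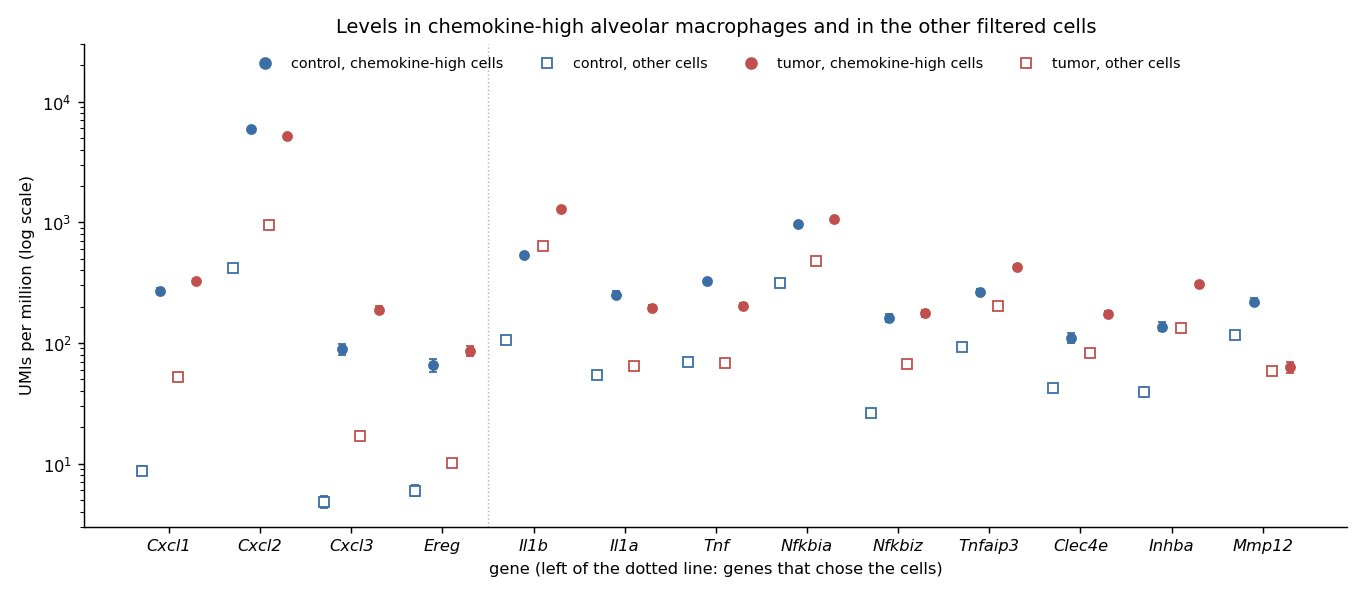
CPM (log scale) of the 4 selecting genes, left of the dotted line, and of 9 other genes, in chemokine-high cells (filled circles) and other filtered cells (open squares) of the control and tumor libraries, with 95% exact Poisson intervals. The 8 genes from *Il1b* to *Inhba* were at least 2-fold higher in the chemokine-high cells of both libraries, whereas *Mmp12* was 1.88-fold higher in control and 1.07-fold higher in tumor.

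*Cxcl2* made up most of the selecting signal. It was at 5915 CPM in control chemokine-high cells (95% exact Poisson interval 5843 to 5988), against 417 in the other filtered control cells. In tumor it was at 5159 (5100 to 5218) against 948. These values chose the cells and are given as a description. *Cxcl2* accounted for 93.3% of the selecting UMIs in control and 89.6% in tumor, and it was the most abundant of the 4 transcripts in 396 of 397 control and 616 of 618 tumor chemokine-high cells. All intervals here cover counting error only, and not the difference between animals.

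The other 3 selecting genes were detected in a minority of the chosen cells. *Cxcl1* had a UMI in 170 of 397 control cells (42.8%) and 286 of 618 tumor cells (46.3%), *Cxcl3* in 84 (21.2%) and 215 (34.8%), and *Ereg* in 90 (22.7%) and 129 (20.9%). All 4 transcripts were seen together in 11 control and 32 tumor cells, whereas 146 and 190 cells had only 1 of them. *Cxcl3* was the one that differed most between the libraries, at 88.5 CPM in control and 189 in tumor chemokine-high cells. *Cxcl1* was at 271 and 327, and *Ereg* at 65.4 and 86.0.

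Between cells, the selecting genes varied together only weakly. Over the 397 control cells the Spearman coefficients of their pairs lay from 0.0185 (*Cxcl1* with *Cxcl3*) to 0.147 (*Cxcl1* with *Cxcl2*), and over the 618 tumor cells from -0.00613 (*Cxcl1* with *Cxcl2*) to 0.118 (*Cxcl1* with *Ereg*). The cells of a library share a preparation, the cells were selected on the sum of these genes, and counts of 0 dominate all genes but *Cxcl2*. Of 2121 31-base words in the *Cxcl2* transcripts 161 are also in *Cxcl3*, and reads there may be split between the genes, whereas *Cxcl1* and *Ereg* shared none with any of the others.

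The share of the selecting transcripts held by these cells follows from the rule and is given as a description. Control chemokine-high cells held 6.67% of the library's UMIs and 68.8% of its *Cxcl1* UMIs, 50.4% of *Cxcl2*, 56.7% of *Cxcl3* and 43.9% of *Ereg*. Tumor chemokine-high cells held 8.34% of all UMIs and 36.1%, 33.1%, 50.4% and 43.4% of the same transcripts. The other filtered cells include those past the score that were left out for the *Apoe* program. *Cxcl1* was at 52.5 CPM in the other tumor and 8.77 in the other control cells, and without program cells at 28.1 and 8.05. *Cxcl2* was at 627 in the other tumor cells without program cells.

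The chosen cells are the upper end of the range of the score. The score needed was 3260 CPM, the lowest chosen cell had 3281 in control and 3260 in tumor, and the highest cell outside, without the *Apoe* program, had 3243 and 3250. Within 20% of this value lay 105 chosen and 139 unchosen control cells, and 138 and 211 tumor cells. The median chosen cell had 55 selecting UMIs in control and 44 in tumor, and the least had 5 and 4. Across this line *Nfkbia*, the gene of an NF-κB inhibitor, was at 749 CPM in the control cells just inside and 725 in those just outside, and at 938 and 740 in tumor. *Il1b*, the interleukin-1β gene, was at 239 and 251 in control and at 851 and 822 in tumor. *Tnf*, the tumor necrosis factor gene, was at 186 and 183 in control and at 161 and 123 in tumor. *Inhba* was at 43.4 inside and 127 outside in control, and at 261 and 293 in tumor. *Mmp12* was at 206 and 177 in control, and at 7.91 and 133 in tumor.

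The share of filtered cells that was chemokine-high was 6.42% in control (exact 95% binomial interval 5.82 to 7.06) and 8.06% in tumor (7.46 to 8.69). Of the cells without the *Apoe* program it was 6.605% and 11.6%. In tumor 356 cells past the score were left out for that program, against 15 in control, so that 12.7% of tumor and 6.66% of control cells passed on the score alone. The highest 10% within each library gave 9.67% in control and 6.47% in tumor after the same exclusion, an order set by how many of the highest 10% were program cells, since each library starts from 10%. Program cells themselves were 2.81% of the control and 30.3% of the tumor library.

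The label was checked against AM markers. All 20 AM identity genes passed the filter on low values (20 CPM over all filtered cells of each library), and none of them differed 2-fold from the other cells in either library. Nothing is read from this count, since few of all genes tested did (0.385% higher and 0.0367% lower in control, 0.147% and 0% in tumor). *Chil3*, which encodes a chitinase-like protein of AMs, was at 13067 CPM in control chemokine-high cells against 11556 in the others, and in tumor at 11775 against 10405. *Marco*, a scavenger receptor gene, was at 553 in control chemokine-high cells against 587 in the others, and in tumor at 336 against 195, or a log2 ratio of 0.21 to the other tumor cells without the *Apoe* program. *Car4*, which encodes carbonic anhydrase 4, was at 338 against 245 and at 263 against 136, with a log2 ratio of 0.60 to those tumor cells. The list as a whole was not raised in this way. Of its 20 genes, 7 had log2 ratios above 0 in both libraries, where 19.1% of all genes tested had. The median log2 ratio was -0.03 in control and 0.21 in tumor, or -0.02 against the other tumor cells without the *Apoe* program. Summed over the list, the median chosen cell had 26266 CPM in control and 25488 in tumor, and the median other cell 25249 and 23055, or 25251 and 25182 without program cells.

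Markers of other cells were low in the chosen cells. No T and NK cell gene of 11 had a UMI in control, and 2 had one in tumor. Of 13 neutrophil genes 7 had no UMI in either library, among them *S100a9*, *Retnlg* and *Ly6g*, and *S100a8* was at 39.7 CPM in control chemokine-high cells against 45.6 in the others and at 75.8 against 106 in tumor. *Mmp8*, the other neutrophil gene that passed the filter, was at 46.9 against 43.0 in control. In tumor it was at 33.7 against 25.9, with a log2 ratio of 0.56 to the other cells without the *Apoe* program. Of 14 monocyte and interstitial macrophage genes 10 had a UMI in control and 11 in tumor, with a sum of 30.7 and 74.3 CPM (27.2 and 166 in the other cells, and 23.3 and 72.8 in those without the *Apoe* program), and the median chosen cell had 0. The 13 neutrophil genes summed to 103 and 131 CPM, against 115 and 152 in the other cells, and 103 and 131 in those without the program. Epithelial genes summed to 144 and 46.6 CPM against 133 and 45.8, endothelial genes to 28.6 and 20.2 against 34.4 and 34.5, and fibroblast genes to 1.39 and 5.75 against 3.29 and 39.8 (1.63 and 8.51 in the other cells without the program). Their part in the results was not tested.

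Depth was alike in chosen and other cells. The median chosen cell had 10769 UMIs in control and 8854.5 in tumor, against 10345.5 and 8228.5 in the others, and its mitochondrial share was 2.56% and 2.41% against 2.71% and 2.48%. The libraries held 8485 and 9175 barcodes with 67847088 and 70738320 UMIs before filtering. They had 25 barcodes in common, of which 2 control and 2 tumor barcodes were chosen cells. Scrublet's automatic threshold called no doublet in either library and was not relied on, and among the cells with the highest scores by Scrublet (4.43% of control and 5.35% of tumor) were 10 and 38 chosen cells.

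A *Cxcl2* UMI alone did not mark a chemokine-high cell. That the chosen cells hold such UMIs follows from the rule and is given as a description. After each cell was thinned to 3700 UMIs, which left out 38 control and 66 tumor chemokine-high cells, *Cxcl2* was seen in all of the other 359 and 552, and in 40.4% and 58.5% of the remaining filtered cells (53.9% and 67.2% before thinning). In cells with few AM transcripts and many of T, B, epithelial, endothelial or fibroblast genes, a group defined after the values were seen, it was found in 4 of 15 control and 5 of 24 tumor cells, whose median depths were 3671 and 8443.5 UMIs. After thinning these were 1 of 7 and 0 of 17. With 3 cells taken as the limit of a count of 0, the latter allows up to 17.6% of cells with a UMI (exact 95% limit 19.5%). *Cxcl1* was seen in 4 of the same 17 thinned tumor cells (23.5%, exact 95% interval 6.81 to 49.9%), an interval that holds both its 8.64% in the other filtered and its 40.0% in the chemokine-high tumor cells, and in 0 of 7 control cells, which allows up to 42.9%.

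Outside the selecting genes, 8 genes of the 5455 tested were at least 2-fold higher in chemokine-high than in other filtered cells of both libraries, which is 0.147% of the genes. They fall into cytokines (*Il1a*, *Il1b*, *Tnf*), regulators of NF-κB signalling (*Nfkbia*, *Nfkbiz*, *Tnfaip3*), the receptor gene *Clec4e* and *Inhba*. Counted in 1 library, 21 genes (0.385%) were at least 2-fold higher in control and the same 8 (0.147%) in tumor. At least 2-fold lower were 2 genes in control (0.0367%), 0 in tumor (0%) and 0 in both (0%). The median gene was at a log2 ratio of -0.05 in control and -0.01 in tumor. The cells were chosen from the same counts, so these values describe the cells and are not a test.

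**Figure D2:**
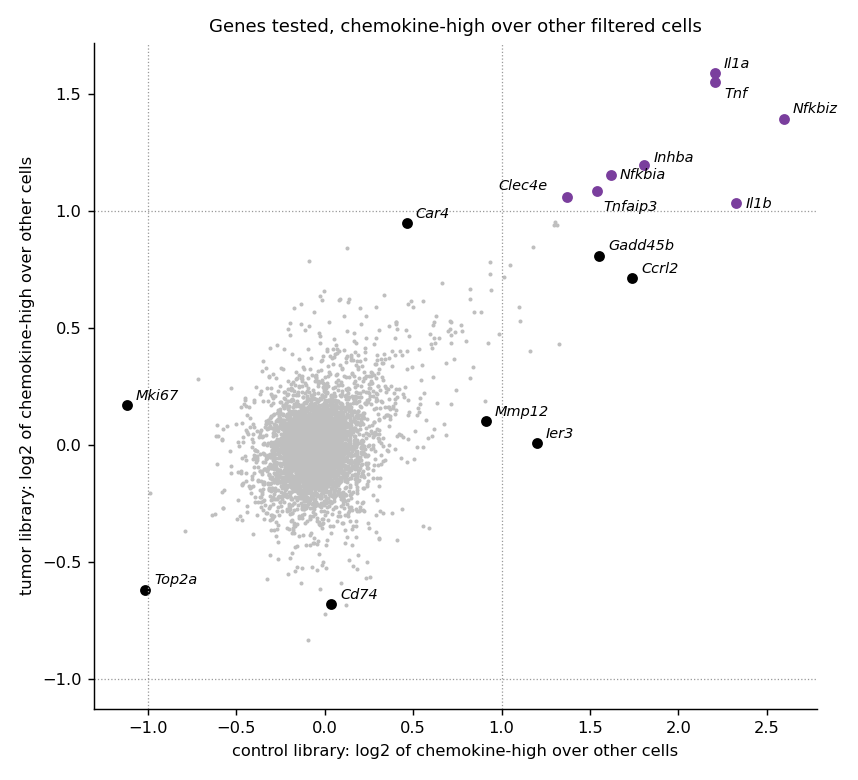
Each grey point is 1 of 5455 genes, with the log2 ratio of chemokine-high over other filtered cells in the control library (horizontal axis) and in the tumor library (vertical axis), and dotted lines at 2-fold. The 8 purple genes lie beyond 2-fold in both, and labelled black genes were beyond 2-fold in control, near it in 1 library or named in the text.

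The cytokine genes were high in both libraries, with *Il1b* highest in tumor. *Il1a*, which encodes interleukin-1α (chr2:129299610-129309972), was at 252 CPM in control chemokine-high cells against 54.5 in the others, and at 194 against 64.2 in tumor. *Tnf*, which encodes tumor necrosis factor (chr17:35199381-35202007), was at 324 against 70.0 and at 202 against 68.8. Both were thus above the other cells by 4.62-fold in control and by 3.01-fold and 2.94-fold in tumor. *Il1b*, which encodes interleukin-1β (chr2:129364570-129371139), was at 536 against 107 in control and at 1296 against 632 in tumor, so that its ratio to the other cells was 5.02 in control and 2.05 in tumor while its level was higher in tumor. Against the other tumor cells without the *Apoe* program, in which *Il1b* was lower, its log2 ratio was 1.57 (95% interval 1.54 to 1.61).

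Of the 15 inflammatory cytokine genes listed, 6 passed the filter on low values, 3 of them were at least 2-fold higher in each library and in both (against 0.385% of all genes tested in control and 0.147% in tumor and in both), and none was lower. The median log2 ratio of these 6 was 1.41 in control and 0.81 in tumor. The gene lists were chosen with earlier results of these data known, so such counts are a description and not a test. *Il1rn*, which encodes the interleukin-1 receptor antagonist, was at 206 CPM against 146 in control and 274 against 182 in tumor. *Il18* was at 456 against 463 and 328 against 256, and *Osm*, the oncostatin M gene, at 268 against 176 and 616 against 599. *Il6* did not pass the filter. Chosen after its values were seen, it had 85 UMIs in control chemokine-high cells, or 19.6 CPM against 1.92 in the others, and 350 UMIs in tumor, or 61.0 CPM against 23.3.

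NF-κB targets and feedback genes were higher in chemokine-high cells as a list, which is a description, since this list too was chosen with earlier results known. All 21 of its 28 genes that passed the filter had log2 ratios above 0 in both libraries, as had 1044 of all 5455 genes (19.1%), with medians of 0.73 and 0.52, and 9 were at least 2-fold higher in control and 4 in tumor, all 4 in both, where 0.385% of all genes were in control and 0.147% in tumor and in both. *Nfkbia*, the gene of the inhibitor IκBα (chr12:55489410-55492647), was at 971 CPM in control chemokine-high cells against 316, and at 1059 against 476 in tumor. *Nfkbiz*, which encodes IκBζ, a nuclear cofactor of NF-κB (chr16:55811375-55838899), was at 160 against 26.5 and at 176 against 66.7. *Tnfaip3*, which encodes the ubiquitin-editing enzyme A20 (chr10:19000910-19015657), was at 266 against 91.8 and at 429 against 202. *Clec4e*, the gene of the C-type lectin receptor Mincle (chr6:123281789-123289870), was at 110 against 42.4 and at 174 against 83.4. *Nfkbia* was detected in 96.5% of control and 96.3% of tumor chemokine-high cells, against 77.5% and 81.7% of the others.

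The list's genes differed in degree. *Nfkb1* and *Rel*, which encode NF-κB subunits, were at log2 ratios of 0.71 and 0.70 in control and 0.47 and 0.49 in tumor, and *Birc3* at 0.24 and 0.19. *Ier3*, an early stress response gene, was at 241 CPM against 105 in control and at 367 against 365 in tumor, where its log2 ratio was 0.01 against all other cells and 0.49 against those without the *Apoe* program. Of the 8 genes above 2-fold in both libraries, 7 had a RefSeq promoter, and the κB motif was found in the 250 bases before a start site of 2 of them, *Nfkbia* and *Tnfaip3*, while 3.90% of all RefSeq promoters hold it there. No match says only that these letters are not in this window.

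Some genes passed 2-fold in control and were below it in tumor. *Icam1*, an adhesion molecule gene, was at 118 CPM against 47.8 in control and 90.5 against 46.7 in tumor. *Nfkbid*, which encodes another inhibitor of the IκB family, was at 84.8 against 34.2 and 187 against 97.5. *Gadd45b*, a stress response gene, was at 229 against 78.2 and 401 against 229, and *Ccrl2*, which encodes an atypical chemerin receptor, at 196 against 58.8 and 235 against 143. The rest of the 20 highest-ranked genes, not all of which passed 2-fold in control, were *Ccl3*, *Egr1*, *Phlda1*, *Cflar*, *Cd83*, *Slc7a11*, *Irf1* and *Hcar2*, with log2 ratios from 0.66 to 1.29 in control and from 0.67 to 0.94 in tumor.

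The 8 genes were picked as higher in these cells, so that more of them were seen per cell than in other cells follows from the choice and is given as a description. At least 4 of them had a UMI in 315 of 397 control cells (79.3%) and 517 of 618 tumor cells (83.7%), against 34.2% and 51.7% of the other filtered cells. All 8 were seen in 27 control and 61 tumor chemokine-high cells. *Tnf* and *Nfkbia* varied together among chemokine-high cells, with Spearman coefficients of 0.37 in control and 0.31 in tumor, whereas *Tnf* and *Inhba* were at 0.03 and 0.04.

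**Figure D3:**
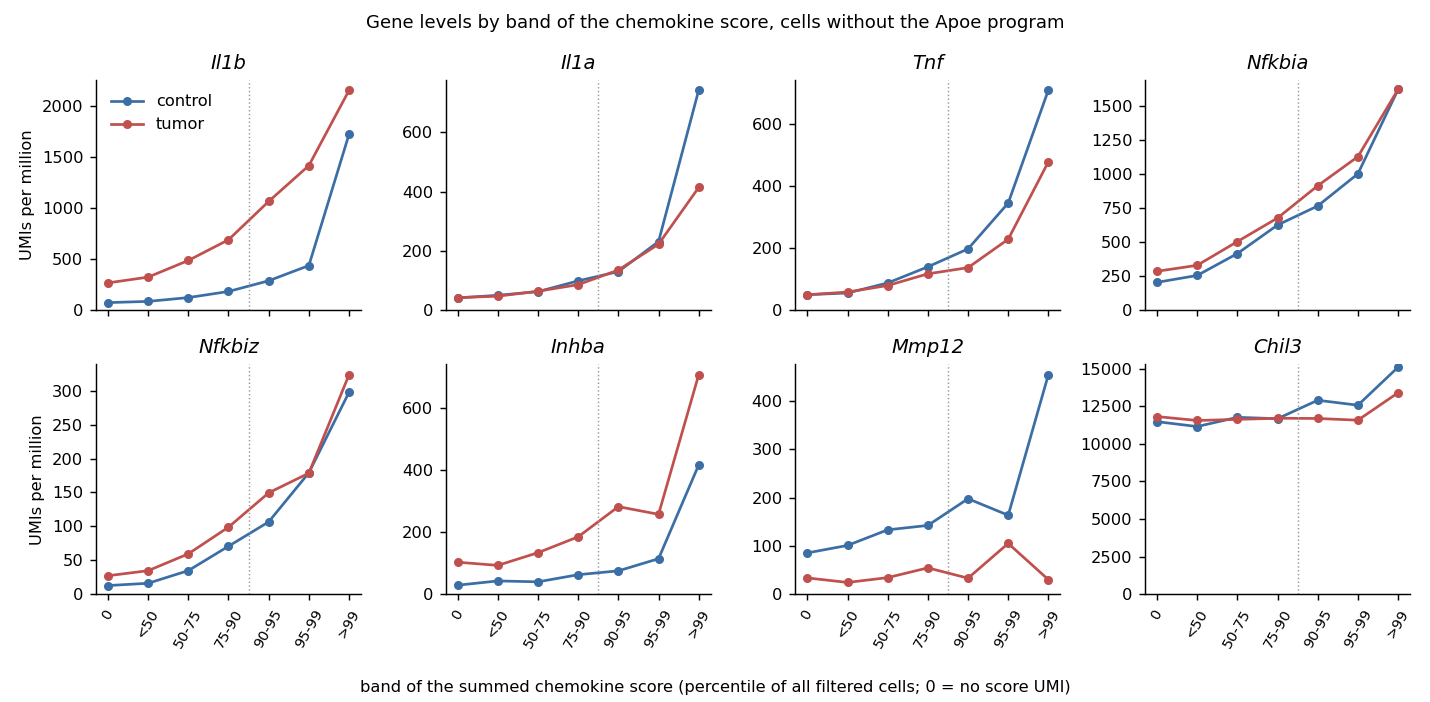
CPM of 8 genes (vertical axes) in 7 bands of the summed chemokine score (horizontal axes, percentiles over all filtered cells), for control and tumor cells without the *Apoe* program, where bands right of the dotted line are the chemokine-high cells. *Nfkbia* is higher in each band than in the one before in both libraries, *Mmp12* in tumor shows no such order and *Chil3* stays between 11147 and 15094.

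Levels of the cytokine and feedback genes increased with the chemokine score below the threshold as well as above it. *Nfkbia* went from 202 CPM in control cells with no selecting UMI to 624 in the band from the 75th to the 90th percentile, and to 1621 in the highest 1%. In tumor it went from 283 to 675 and 1621. *Tnf* went from 48.9 to 139 and 711 in control, and from 48.6 to 116 and 479 in tumor. *Il1b* began from different levels, 70.5 in control and 264 in tumor, and reached 1719 and 2150. The highest 1% held 55 control and 50 tumor cells. The order of these genes across bands is a description, since score and levels were read from the same cells.

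The levels were also read from UMIs that had not chosen the cells. The UMIs of each cell were divided at random, 50% to choose the cells and 50% to measure them. The log2 ratio of *Cxcl2* was 3.73 in control and 2.40 in tumor on the measuring UMIs, against 3.83 and 2.48 on the choosing UMIs. Those of *Cxcl1* were 4.82 and 2.60. The same 8 genes were at least 2-fold higher in both libraries. They were not in the score and had been picked on all UMIs of these cells, including the measuring ones. For them the division is therefore a description and not a separate test.

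*Inhba* (chr13:16011851-16031621) was higher in chemokine-high cells of both libraries and higher in tumor than in control. It was at 137 CPM in control chemokine-high cells (126 to 148) against 39.1 in the others, and at 306 (292 to 321) against 134 in tumor. The log2 ratios were 1.81 (95% interval 1.67 to 1.94) and 1.20 (1.12 to 1.27). *Inhba* had a UMI in 22.9% of control and 39.6% of tumor chemokine-high cells, against 9.54% and 27.2% of the others. Thinned to equal depth, the shares were 16.4% and 31.7% against 5.42% and 19.5%. A few cells held much of it in control, where 5 cells carried 32.4% of the chemokine-high *Inhba* UMIs, against 13.3% in tumor. Without the 5 cells with most *Inhba* UMIs in each group, an alternative chosen after seeing the data, the log2 ratios were 1.44 and 1.06.

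*Inhba*-rich cells were chemokine-high more often than filtered cells as a whole, of which 6.42% in control and 8.06% in tumor were chemokine-high. Of cells with at least 5 *Inhba* UMIs, 35 of 162 were chemokine-high in control (21.6%, exact 95% interval 15.5 to 28.7) and 113 of 677 in tumor (16.7%, 13.96 to 19.7). Chemokine-high cells held 20.01% of the *Inhba* UMIs in control and 17.2% in tumor. Of the 14 activin pathway genes 4 passed the filter, and *Inhba* was the 1 at least 2-fold higher, in each library. Of all genes tested 0.385% were in control and 0.147% in tumor, so nothing is read from the rest of the list not reaching it. The receptor gene *Acvr1b* was at 30.5 CPM against 27.8 in control and 33.7 against 30.8 in tumor, and the signal transducer gene *Smad2* was at 39.7 against 42.3 and 44.3 against 39.8. *Fst*, which encodes the activin inhibitor follistatin, was at 0.693 and 2.79 CPM in chemokine-high cells of control and tumor.

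*Mmp12* (chr9:7344381-7369499) did not mark the chemokine-high cells of both libraries. It was at 219 CPM against 117 in control, a log2 ratio of 0.91 (0.81 to 1.01), and at 62.9 against 58.7 in tumor, a log2 ratio of 0.10 (-0.06 to 0.26). Its UMIs sat in few cells. In tumor chemokine-high cells it was found in 35 of 618 cells, and 5 of them held 81.7% of its 361 UMIs. Without the 5 cells with most *Mmp12* in each group its level was 11.6 against 47.4, and the log2 ratio was -2.03. In control it was found in 111 of 397 cells, 5 of which held 42.3% of the UMIs, and without the top 5 of each group the log2 ratio was 0.35. Against other tumor cells without the *Apoe* program the tumor ratio was 0.77 on the log2 scale.

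*Inhba* was found more often in cells with *Mmp12*, in the chemokine-high cells as in the other filtered cells. Cells were not thinned to equal depth for this, and the part of depth was not tested. Of the 111 control chemokine-high cells with *Mmp12*, 54 (48.6%, 39.0 to 58.3) also had *Inhba*, against 12.9% of the 286 without *Mmp12*. These *Mmp12* cells held 70.6% of the *Inhba* UMIs of the control chemokine-high cells. In tumor 21 of 35 cells (60%, 42.1 to 76.1) had both, against 38.4% of the 583 without *Mmp12*, and *Mmp12* cells held 16.3% of the *Inhba* UMIs. The other filtered cells showed the same order, with *Inhba* in 24.6% of control cells with *Mmp12* and 6.56% of those without, and in 42.3% and 26.0% of tumor cells, and there *Mmp12* cells held 63.0% and 16.3% of the *Inhba* UMIs. The Spearman coefficient of the pair was 0.41 over control and 0.12 over tumor chemokine-high cells.

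**Figure D4:**
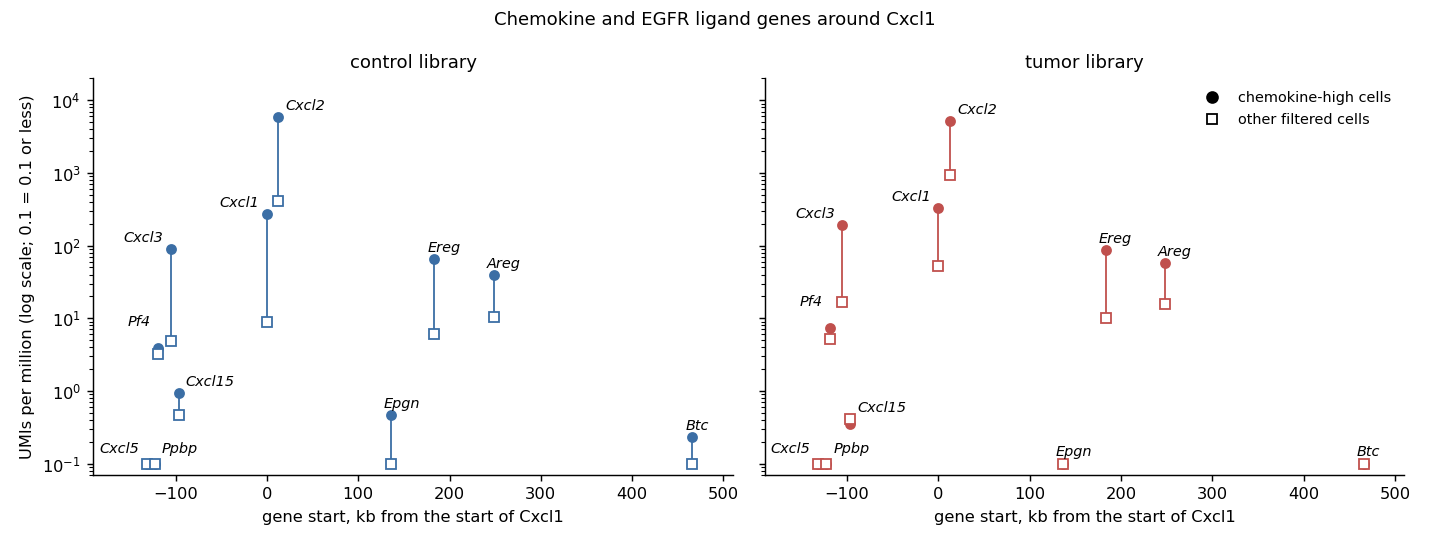
CPM (log scale, values of 0.1 or less drawn at 0.1) of 11 chemokine and EGFR ligand genes by the distance of their start from that of *Cxcl1* in kb, for control (left) and tumor (right), in chemokine-high cells (filled circles) and other filtered cells (open squares). *Areg* differs between the groups of cells in both libraries, and *Cxcl5* and *Ppbp* lie at the bottom of both panels.

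Genes next to the selecting genes were not all high. From *Cxcl5* to *Btc*, 644 kb of chromosome 5 hold 12 protein-coding genes, of which 11 encode chemokines or EGFR ligands and *Mthfd2l* was not analysed here. *Areg*, which encodes the EGFR ligand amphiregulin (chr5:91139599-91148432), lies beyond *Ereg* and had 169 UMIs in control chemokine-high cells, or 39.0 CPM against 10.3, and 332 in tumor, or 57.9 against 15.5. Its log2 ratios, 1.93 (1.67 to 2.17) and 1.90 (1.72 to 2.08), were 1.40 and 1.83 without the 5 cells with most *Areg* UMIs in each group, which had held 66 of the 169 control UMIs, and its level over all cells was too low for the filter. *Pf4*, which encodes platelet factor 4, was at 3.93 against 3.25 and 7.32 against 5.12. *Cxcl15* had 4 and 2 UMIs in chemokine-high cells, *Epgn* 2 and 0, and *Btc* 1 and 0. *Cxcl5* and *Ppbp*, which also encode ELR-motif chemokines, had no UMI in chemokine-high cells of either library.

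Other chemokine genes were higher in part. Of 13 CC chemokine genes 4 passed the filter, 2 were at least 2-fold higher in control (0.385% of all genes were) and none in tumor, where with 0.147% of all genes at 2-fold nothing is read from none of 4. *Ccl3* and *Ccl4*, which encode macrophage inflammatory proteins, were at 313 against 128 and 74.4 against 29.6 CPM in control, and at 296 against 154 and 128 against 95.3 in tumor. *Ccl9* was at 173 against 91.1 and 222 against 164, whereas *Ccl6*, the most abundant, was at 3526 against 3457 in control and 5180 against 5816 in tumor. *Cxcl10*, an interferon-inducible chemokine gene below the filter, was at 13.9 against 4.02 and 37.3 against 14.3, and 5 cells held 78.3% of its control UMIs. The receptor genes *Cxcr1* and *Cxcr2* were at 15.2 and 9.01 CPM in control chemokine-high cells and at 8.02 and 12.03 in tumor.

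Immediate early genes were slightly higher. Of 23 tested, 20 had log2 ratios above 0 in both libraries (19.1% of all genes tested had), with medians of 0.34 in control and 0.25 in tumor (0.17 against other tumor cells without the *Apoe* program). At least 2-fold higher was 1, *Egr1* in control, where 0.385% of all genes tested were (0.147% in tumor). *Egr1*, an early growth response transcription factor gene, was at 232 CPM against 103 in control and 233 against 130 in tumor. *Zfp36*, which encodes the mRNA-destabilising protein tristetraprolin, was at 460 against 297 and 746 against 509. *Fos* was at 869 against 684 and 1365 against 1251.

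Several other lists held no gene at least 2-fold higher, a count near that of all genes (0.385% in control and 0.147% in tumor), from which nothing is read about them. None of the 10 heat shock genes tested reached it, and their median log2 ratios were -0.04 in control and 0.14 in tumor. The same held for 8 genes of prostaglandin and leukotriene synthesis (-0.09 and -0.02), 14 of Toll-like receptor signalling (0.08 and 0.10), 10 of glycolysis and hypoxia (-0.04 and 0.04), 12 of lipid handling (-0.07 and 0.03) and 9 of metalloproteinases and matrix (0.23 and -0.03). Against other tumor cells without the *Apoe* program the tumor medians turned in sign for heat shock (-0.05), lipid handling (-0.11) and metalloproteinases and matrix (0.18). *Tlr2*, the receptor gene for bacterial lipoproteins, was at 715 CPM against 464 in control and 671 against 495 in tumor. *Cd14*, a lipopolysaccharide co-receptor gene, was at 360 against 192 and 421 against 370. Of 12 NRF2 and iron genes 1 reached 2-fold, in control, the cystine transporter gene *Slc7a11* (387 against 191 in control and 337 against 205 in tumor).

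At least 2-fold lower were 2 genes in control (0.0367% of the genes tested) and 0 in tumor (0%). The 2 in control were *Mki67* and *Top2a*, markers of dividing cells, at 31.2 CPM against 67.7 and at 28.2 against 57.0. In tumor *Mki67* was at 33.1 against 29.4 and *Top2a* at 17.3 against 26.5. The replication gene *Pcna* was at 192 against 208 and 182 against 165. The median log2 ratio of the 6 cell cycle genes tested was -0.47 in control and 0.05 in tumor. MHC class II genes were at a median of 0.02 in control and -0.68 in tumor, and at 0.14 when the other tumor cells with the *Apoe* program were left out.

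**Figure D5:**
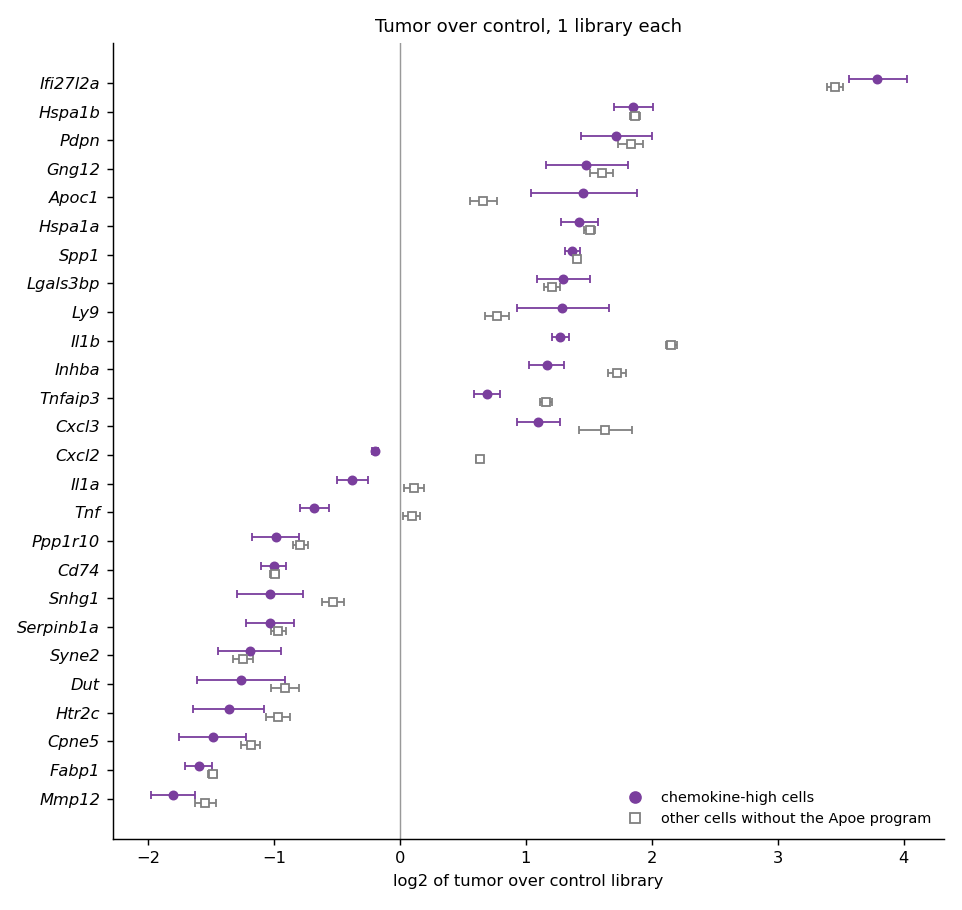
Log2 ratio of tumor over control library (horizontal axis) for 26 genes (vertical axis), in chemokine-high cells (purple circles) and in the other cells without the *Apoe* program (grey squares), with 95% exact intervals for counting error. Some genes, such as *Hspa1b*, *Spp1* and *Cd74*, sit at nearly the same ratio in both. *Il1b*, *Inhba*, *Tnfaip3*, *Cxcl3*, *Cxcl2*, *Tnf* and *Il1a* sit lower in the chemokine-high cells, as do *Snhg1*, *Htr2c* and *Dut*. *Apoc1* and *Ly9* sit higher there.

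Between libraries, tumor chemokine-high cells had 38 genes (0.697% of 5455) at least 2-fold above control chemokine-high cells and 9 (0.165%) at least 2-fold below. *Ifi27l2a*, an interferon-inducible gene, was at 530 CPM in tumor and 38.3 in control, a log2 ratio of 3.79 (3.56 to 4.02). The heat shock genes *Hspa1b* and *Hspa1a*, near-identical copies whose reads may be split between them, were at 346 and 288 in tumor against 96.1 and 107 in control. *Spp1*, which encodes osteopontin, was at 1703 against 660. Lower were *Mmp12* (log2 ratio -1.80, -1.98 to -1.62, and -3.47 without the 5 cells with most *Mmp12* UMIs in each group, an alternative chosen after seeing the data), the fatty acid binding protein gene *Fabp1* at 183 against 553, and *Cd74*, the MHC class II invariant chain gene, at 227 against 455. The other cells without the *Apoe* program had like ratios for most of these, 3.46 for *Ifi27l2a*, 1.87 for *Hspa1b*, 1.40 for *Spp1*, -1.49 for *Fabp1* and -0.99 for *Cd74*. Others were further apart, with *Apoc1* at 1.45 in chemokine-high and 0.66 in those other cells, *Ly9* at 1.29 and 0.77, and *Snhg1* at -1.03 and -0.53.

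Several genes that were high in chemokine-high cells had a lower tumor over control ratio there than in the remaining cells. The tumor over control log2 ratio of *Il1b* was 1.27 (1.21 to 1.34) in chemokine-high cells and 2.15 (2.11 to 2.20) in the other cells without the *Apoe* program. For *Inhba* it was 1.16 (1.03 to 1.30) and 1.72 (1.65 to 1.79), or 1.51 and 1.80 without the 5 cells with most *Inhba* UMIs in each group. In chemokine-high cells it was 0.77 with the highest 5% of cells chosen and 1.33 with a threshold within each library. For *Nfkbiz* the ratios were 0.13 and 1.09, and for *Tnfaip3* 0.69 and 1.16. *Tnf* and *Il1a* were lower in tumor than in control chemokine-high cells, at log2 ratios of -0.68 (-0.79 to -0.57) and -0.38 (-0.50 to -0.26), while in the other cells they were at 0.09 and 0.11. The common threshold took 6.605% of control and 11.6% of tumor cells without the program, and its part in the ratios of these genes was not tested. *Cxcl2* was at -0.20 and 0.63, a pair of values that the common threshold helped to set. Tumor chemokine-high cells thus held more *Il1b* and less *Tnf* and *Il1a* than control chemokine-high cells.

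The difference in *Inhba* and *Il1b* was present within bands of the score. Among chemokine-high cells with scores from 3260 to under 4000 CPM, 115 in control and 154 in tumor, *Inhba* was at 45.3 and 240 CPM. From 4000 to under 6000 it was at 110 and 284, and from 6000 at 230 and 390. Scores in the last band, which has no upper limit, were not matched (*Cxcl2* at 8960 CPM in control and 7681 in tumor). The log2 ratios of *Inhba* were 2.41, 1.37 and 0.76, so that the libraries were closest in the band with the highest scores. Without the 5 cells with most *Inhba* UMIs in each band and library, which had held 168 of 384 control UMIs in the highest band, they were 2.98, 2.53 and 1.13. *Il1b* had log2 ratios of 1.96, 1.68 and 0.95 in the same bands, and *Mmp12* was lower in tumor in each, with -4.52, -2.17 and -0.98. In tumor 5 cells held 8 of 12, 85 of 92 and 235 of 257 *Mmp12* UMIs of these bands, and without the 5 cells with most in each band and library the ratios were -4.15, -4.31 and -3.30, so no order of the bands is read from them.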

How the data were processed

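The deposited files hold raw UMI counts per Ensembl gene and cell barcode, which the authors made with bcl2fastq 2.20 and Cell Ranger on mm10 (version 4.0.0 per the labels' processing notes). The study's methods name another Cell Ranger version. Of 32285 gene IDs 32158 had a symbol, and for shared symbols the ID with most UMIs was used. Cells with at least 500 genes and at most 10% mitochondrial UMIs were kept. Cells were chosen by the rule above, and no deposited cell annotation was used. Doublets were not removed. Levels are CPM (UMIs in 1000000) summed over cells, with exact Poisson intervals, ratios have exact conditional binomial intervals, and a 2-fold ratio was the size rule. Genes under 20 CPM over all filtered cells of either library, the 4 selecting and the 3 program genes were left out of the counts of genes. Samples were grouped by their labels. Named genes were the selecting and program genes, *Mmp12* and *Inhba*, the 20 highest and 10 lowest by the library nearer 0, 10 in each direction between libraries, up to 4 of each list, and the chemokine and EGFR ligand genes within 500 kb of the selecting genes, and further genes of the lists were named after their values were seen. The members and the 27 gene lists were chosen with earlier results of these data known. Ratios and intervals were tested on simulated sums drawn with counting error only, which the intervals assume. That checks the calculation, and not the intervals of genes whose UMIs sit in few cells. Python 3.11.15, numpy 2.4.6, scipy 1.17.1, pandas 2.3.3 and scanpy 1.11.5 (Scrublet) were used. Alternatives changed the threshold, the filters, the score genes, the excluded program, depth, doublets, the comparison cells and the scaling.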

Additional observations from a re-analysis of the deposited data

Results flagged for a closer look

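The selecting transcripts were also present in barcodes that no comparison used. In the 1509 tumor barcodes that the quality filter left out, *Cxcl1*, *Cxcl2*, *Cxcl3* and *Ereg* together were at 1289.5 CPM (exact 95% Poisson interval 1239 to 1341), above the 791 (760 to 824) in the 2300 control barcodes left out. The filtered cells were at 1422 in tumor and 830 in control.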

How the results depend on the processing

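The sign of the tumor ratio of *Mmp12*, whose interval included 0, turned without the 5 cells with most UMIs. The order of the shares turned with a threshold within each library, which starts both from 10% and so leaves the order to the program cells removed. The share of cells that was chemokine-high, 6.42% in control and 8.06% in tumor, was 3.36% and 4.005% with the highest 5% of cells, 13.2% and 16.4% with the highest 20%, 9.67% and 6.47% with the highest 10% within each library, 5.08% and 10.02% with a score without *Cxcl2*, and 12.7% in tumor with *Apoe* program cells kept. The number of genes at least 2-fold higher in both libraries, 8, was 4 with the highest 20%, 5 without *Cxcl2* in the score and 126 among all genes with a UMI. All 8 were among those called under the other alternatives, 4 of them with the highest 20% and 5 without *Cxcl2*. The number lower in both, 0, was 1 with a filter of 5 CPM and 2767 among all genes with a UMI. The 38 genes higher in tumor became 110 and 1628 under these filters. The 9 lower in tumor became 49 and 1798, 5 with the highest 20%, 3 without *Cxcl2*, 27 with *Apoe* program cells kept and 15 with means of cells. With the lower filters more genes were tested, and for the others the cause was not tested. The log2 ratio of *Inhba* lay from 1.44 to 2.26 in control and from 1.03 to 1.25 in tumor over 16 alternatives each, and that of *Mmp12* in tumor from -2.03 (without those 5 cells) to 0.77. The tumor over control ratio of *Inhba*, 1.16, lay from 0.77 (highest 5%) to 1.51 (without those 5 cells), and that of *Mmp12* from -3.47 (without those 5 cells) to -1.32 (threshold within each library), over 15 alternatives each. Leaving out shared barcodes, or the 5 cells with most UMIs of a gene, was chosen after seeing the data. No paired analysis was possible because each condition is 1 library. Counts of few UMIs in single cells limit what is seen of *Cxcl3*, *Ereg* and *Mmp12*.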
